A study of Homo sapiens with 6 samples.

Results

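The 10 genes described here are markers by which ovarian carcinoma is recognised or followed. They are the transcription factors PAX8, WT1, SOX17 and MECOM, the estrogen receptor ESR1, and the surface or secreted proteins MUC16, MUC1, MSLN, WFDC2 and FOLR1. They were chosen by name, with earlier results of these data known, and they are 10 of the 34834 genes that had a quantified transcript. RNA was sequenced from SKOV3, an established human ovarian cancer line kept in RPMI medium with serum and antibiotics, 48 h after siRNA had been delivered with Lipofectamine. The 3 knockdown samples (DNM3OS KD) received 50 nM of a SMARTpool against DNM3OS, a long non-coding RNA gene studied for its part in epithelial-to-mesenchymal transition. The 3 control samples (NT) received 50 nM of a non-targeting pool, so that both groups share the line, the reagent and the siRNA load. Nothing in the labels states that the samples of a group were separate cultures, and p-values therefore measure only the spread between these samples, which may be technical.

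The knockdown itself could not be read from these values, because 0 of the 6 DNM3OS transcripts in GENCODE release 44 were among those quantified. Estimated counts summed to between 1610937 and 1995888 per sample, of which 1523156 to 1868461 were on annotated transcripts. Against those annotated totals, 3 counts were worth 1.61 to 1.97 CPM, a unit that sets counts relative to the total of the library. The CPM of genes given below used scaled library sizes instead. A single gene, PLLP, held between 15.7% (KD 1) and 22.2% (KD 2) of the annotated counts of a sample. The libraries were made with a stranded kit, but several housekeeping genes held far fewer counts than the gene that shares their exon bases on the opposite strand. FTH1, the ferritin heavy chain, had 85.5 to 550 counts, while BEST1 on the other strand had 26509 to 46756. PRDX1 had 19.2 to 81.7 counts and its partner MMACHC 5692 to 8253. ERBB2, whose amplification is a textbook feature of SKOV3, had 311 to 872 counts and MIEN1, its neighbour on the other strand, 24569 to 42919. The strand setting used for quantification is not given in the sources used here, so sense and antisense signal cannot be told apart in the values below. The 12 housekeeping genes together held between 0.0654% (KD 1) and 0.291% (NT 1) of a sample's counts.

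Ovarian epithelial tumors are classified by the lineage they resemble. PAX8 and SOX17 are factors of the Müllerian duct epithelium, WT1 marks serous tumors, and ESR1 transmits the estrogen signal in hormone-responsive epithelium. MUC16 and WFDC2 are shed or secreted and measured in serum, while MSLN and FOLR1 are surface proteins used as targets of antibody-based therapy.

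Of the 10 markers, 4 were measured well enough to be compared between the groups and 6 were not. MECOM, PAX8, ESR1 and SOX17 passed the filter on low counts, while FOLR1, WT1, MSLN and MUC16 never exceeded 5 counts in a sample and MUC1 and WFDC2 had 0 counts in every sample. On the TPM scale (abundance adjusted for transcript length and scaled to the library), the mean over 6 samples was 104 ± 21.3 (SD) for MECOM, higher than for 96.8% of quantified genes. PAX8 followed with 14.7 ± 3.31 TPM, above 76.8% of genes. It is the factor most used in pathology to place a tumor in the Müllerian lineage. The mean was 10.5 ± 4.22 TPM for ESR1, above 71.8% of genes. SOX17 had 5.40 ± 1.55 TPM and stood above 63.0% of genes. These shares include the many genes with no count, and among protein-coding genes alone MECOM stood above 95.1%, PAX8 above 66.0%, ESR1 above 58.9% and SOX17 above 46.7%. The highest mean of all genes was 184170 TPM, for FAM83A, and the TPM of the markers are scaled to a total that includes it. The order of the marker levels was firm at some steps and not at others. MECOM exceeded PAX8 in 6 of 6 samples and ESR1 exceeded SOX17 in 6 of 6, both without overlap of their ranges, whereas PAX8 exceeded ESR1 in only 4 of 6 and their ranges overlapped.

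Below these came FOLR1 with 1.28 ± 1.70 TPM, WT1 with 0.495 ± 0.463, MSLN with 0.139 ± 0.219 and MUC16 with 0.0231 ± 0.0194 (SD, n = 6 each). FOLR1 rested on KD 1, and without that sample its mean was 0.618 TPM, beside 0.594 TPM for WT1. Neighbours in this lower range were not separated: SOX17 exceeded FOLR1 in 5 of 6 samples, FOLR1 exceeded WT1 in 3, WT1 exceeded MSLN in 4 and MSLN exceeded MUC16 in 2. The median of the 10 marker means was 0.888 TPM and 20% of the markers (MUC1 and WFDC2) had no count in any sample. Over all quantified genes the median was 1.49 TPM and 34.1% had no count in any sample. The share that passed the filter was 40.0% of the markers and 33.9% of all genes.

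**Figure D1:**
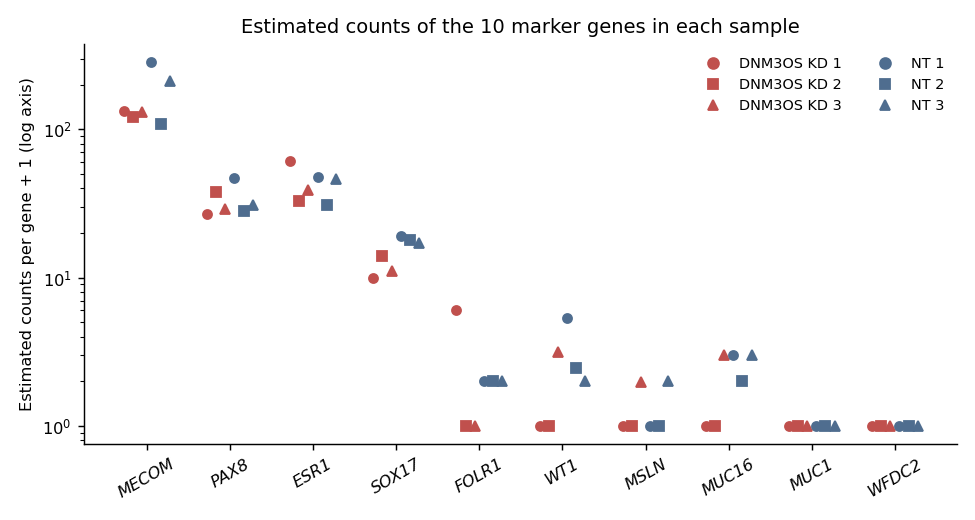
Estimated counts per gene plus 1 (log axis) for each of the 10 markers, with 1 point per sample, red for DNM3OS KD and blue for NT, and with circles, squares and triangles for replicates 1, 2 and 3. MECOM lies between 108 and 283 counts, PAX8, ESR1 and SOX17 lie between 9 and 60, and the other 6 markers lie at 5 counts or fewer.

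No marker passed the threshold of the comparison, which asked edgeR's exact test over 11814 genes for an adjusted p under 0.05 together with a 2-fold difference. The count was 0 of 4 tested markers lower and 0 of 4 higher, against a background of 0.00846% of all tested genes called lower (1 gene, BORCS7-ASMT) and 0% called higher. At an unadjusted p below 0.05, 345 genes passed and 0 of them were markers. By edgeR's quasi-likelihood test and by DESeq2, 0 markers were called. The 4 tested markers had a median log2 fold change of -0.376, with 3 of 4 lower in the knockdown, and all tested genes had a median of 0.004173, with 5837 of 11814 lower. Groups that did not overlap were seen for 1 marker, SOX17, which was lower in the knockdown. Among all tested genes 3.56% were without overlap and lower, and 4.42% without overlap and higher.

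PAX8 (ENSG00000125618, chr2:113215997-113278921, minus strand, GRCh38) is the paired-box factor that keeps Müllerian epithelium in its lineage. It had 26, 37 and 28 counts after knockdown, against 46, 27 and 30 in the controls. The highest sample was NT 1, and the other 2 controls lay within the range of the knockdown. The mean was 18.9 ± 6.48 CPM in the knockdown and 20.5 ± 4.93 CPM in the controls (SD, n = 3 each). The log2 fold change of -0.14 (standard error 0.339) did not pass the test (adjusted p = 1, edgeR's exact test), and the exact two-sided permutation test of log2 CPM gave p = 0.8. The smallest p that this permutation test can give with 3 samples in each group is 0.1. The direction was not stable, since without KD 1 the log2 fold change was 0.13 and without NT 1 it was 0.07.

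The counts of PAX8 were spread over 9 of its 13 quantified transcripts, and PAX8-204 held the largest share with 25.1%. The antisense gene PAX8-AS1 lies on the other strand and shares 1651 of the 7371 exon bases of PAX8, and it was not among the genes quantified. Of the 13 PAX8 transcripts, 11 share exon bases with it, and the transcripts that share none held only 3.84% of the PAX8 counts. When only those transcripts were kept, the mean level was 2.82 TPM in place of 14.7. How much of the PAX8 value came from RNA of the other strand was not tested.

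SOX17 (ENSG00000164736, chr8:54457935-54460892, plus strand) is an SRY-box factor of endoderm and Müllerian epithelium. The knockdown samples had 9, 13 and 10 counts and the controls 18, 17 and 16. Every knockdown sample was therefore below every control. The CPM values were 4.19, 8.78 and 7.02 against 10.3, 11.1 and 9.41, with means of 6.66 ± 2.32 and 10.3 ± 0.859 (SD, n = 3 each). The log2 fold change was -0.66 (standard error 0.270), with an unadjusted p of 0.144 and an adjusted p of 1 in edgeR's exact test. The exact permutation test gave p = 0.1, its smallest possible value here. On the TPM scale the groups were also apart, with 2.98 to 5.33 TPM in the knockdown and 6.03 to 7.08 TPM in the controls. SOX17 has 1 annotated transcript, no exon bases shared with a gene on the other strand, and no ambiguity of isoform. In RNA from whole cultures, fewer cells with the transcript and less of it per cell cannot be told apart. KD 1 was the lowest sample for both SOX17 and the housekeeping share, and without it the log2 fold change was -0.36.

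WT1 (ENSG00000184937, chr11:32387775-32435564, minus strand) encodes the zinc finger factor that separates serous from other ovarian carcinomas in routine pathology. It had 0, 0 and 2.17 counts after knockdown and 4.36, 1.44 and 1 in the controls. All values were near the limit of 3 counts, so a difference between the groups was not detectable at this depth. Only 9 of the 22 annotated WT1 transcripts were quantified, which limits what these values say about the gene as annotated. WT1-AS, on the other strand, shares 47 of 8133 exon bases and was not quantified. On the transcripts that share no bases with it, the mean level was 0.0967 TPM in place of 0.495.

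MECOM (ENSG00000085276, chr3:169083499-169663775, minus strand) had the highest level of the 10 markers. The locus encodes zinc finger regulators of the PRDM family: transcripts from a proximal start encode EVI1, and transcripts that run through from a start far upstream add a PR domain to it. RefSeq (GRCh38.p14) lists 3 starts for the gene, 1 distal and 2 proximal, and the 250 bases before each are printed here because the transcripts from the distal and from the other starts are described separately below. They are given 5′ to 3′ on the minus strand, and capitals mark the GC box GGGCGG or its reverse complement CCGCCC.
MECOM distal start, chr3:169663713-169663962: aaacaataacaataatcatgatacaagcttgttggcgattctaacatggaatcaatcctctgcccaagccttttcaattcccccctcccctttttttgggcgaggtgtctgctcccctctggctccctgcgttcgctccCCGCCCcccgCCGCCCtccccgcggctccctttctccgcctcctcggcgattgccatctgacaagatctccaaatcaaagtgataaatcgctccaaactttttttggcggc
MECOM proximal start, upstream of the pair, chr3:169147472-169147721: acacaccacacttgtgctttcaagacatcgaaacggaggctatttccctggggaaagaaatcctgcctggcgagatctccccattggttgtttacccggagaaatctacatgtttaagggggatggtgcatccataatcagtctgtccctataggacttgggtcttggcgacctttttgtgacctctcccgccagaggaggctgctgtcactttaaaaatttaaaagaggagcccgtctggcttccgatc
MECOM proximal start, downstream of the pair, chr3:169146540-169146789: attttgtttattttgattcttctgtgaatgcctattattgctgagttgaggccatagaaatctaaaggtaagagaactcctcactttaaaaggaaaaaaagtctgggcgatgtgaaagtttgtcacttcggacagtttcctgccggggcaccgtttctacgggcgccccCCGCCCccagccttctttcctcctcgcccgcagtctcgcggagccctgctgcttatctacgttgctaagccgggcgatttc
The GC box was matched 2 times before the distal start, 0 times and 1 time before the proximal starts. Of 35116 promoters in the same RefSeq table, 42.6% held at least 1 match in a window of this length. TATAAA, the core of the TATA box, was searched on both strands and not matched before any of the 3, while 10.7% of all promoters held it. CACGTG, the E-box read the same on both strands, was also not matched, against 6.34% of all promoters. The GC content of the 3 windows was 53.6%, 49.6% and 50.0%, with 14, 8 and 14 CpG, beside medians of 58.0% and 11 over all promoters. A match or its lack describes these letters and not the use of the start. The RefSeq starts are also not always those of the quantified transcripts. The first exon of MECOM-206 spans 169146723-169147734, so it holds the whole upstream proximal window and a part of the downstream one. That of MECOM-214 spans 169663336-169663775 and overlaps the distal window.

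Summed over the gene, MECOM had 133, 121 and 130 counts in the knockdown and 283, 108 and 212 in the controls. NT 1 and NT 3 were high, while the third control, NT 2, had the fewest counts of all 6 samples. In CPM, NT 2 (70.7) lay within the knockdown samples (61.9, 81.7 and 91.2), so that the groups overlapped on both scales. The means were 78.3 ± 14.98 CPM in the knockdown and 119 ± 45.5 CPM in the controls (SD, n = 3 each). The log2 fold change was -0.61 (standard error 0.384), with an unadjusted p of 0.0567 and an adjusted p of 1 in edgeR's exact test, and the exact permutation test gave p = 0.3. Without NT 2 the log2 fold change was -0.87 (adjusted p = 0.282, edgeR's exact test), and without NT 1 it was -0.33.

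As the counts were assigned, the level of MECOM per length came mostly from transcripts of its distal start. Counts were found on 10 of 19 quantified transcripts, and the transcript with the most was MECOM-213, with 350 counts over 6 samples or 35.5% of the gene. MECOM-213 begins at the distal start, has 3 exons at 169663336-169663618, 169381187-169381524 and 169149482-169149755 of chromosome 3, and carries no defined coding sequence. MECOM-217, the quantified transcript that joins the distal start to the zinc finger exons, had 0 counts in all 6 samples, and MECOM-220, the annotation's canonical transcript, was not among those quantified. MECOM-213 and MECOM-214 together, the 2 distal-start transcripts with counts, held 37.9% of the counts of the gene and 77.3% of its TPM. As assigned, the 104 TPM of the gene were thus mainly the level of short transcripts without the zinc finger exons. The part of MECOM-214 rested on only 2 to 8 counts per sample, at 7.75 to 24.6 TPM. In KD 1 its 8 counts gave 24.6 TPM, while 65.8 counts of MECOM-213 gave 64.7 TPM. Their annotated exon bases are 778 and 895, and why the TPM per count differed was not tested. The exon of MECOM-213 at 169381187-169381524 is also an exon of MECOM-217, and read positions cannot be read from these values. How much RNA from the distal start ran on to the zinc finger exons was not tested. The grouping by start was made after these values had been seen.

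**Figure D2:**
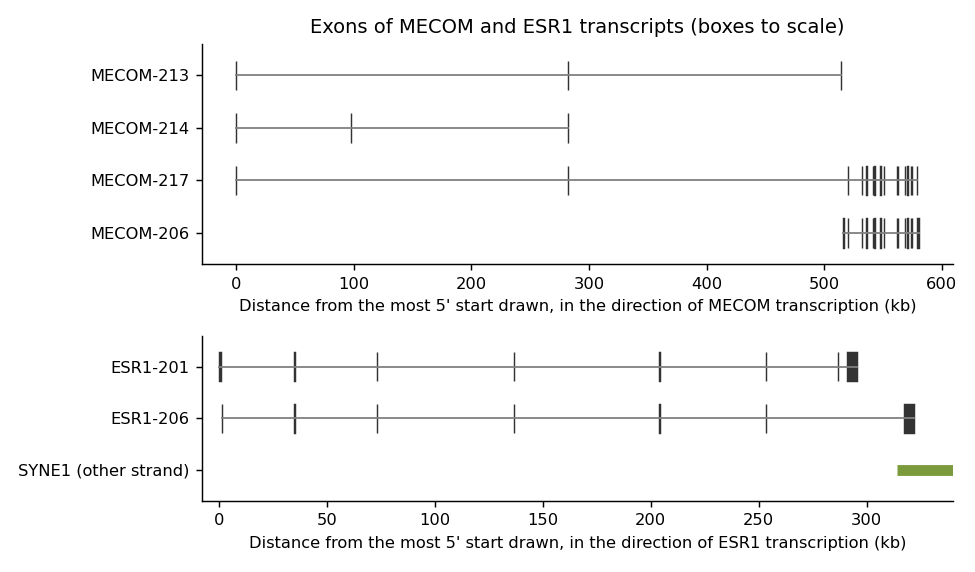
Exons (boxes, to scale) of 4 MECOM and 2 ESR1 transcripts against the distance in kb from the most 5′ start drawn, in the direction of transcription. MECOM-213 and MECOM-214 consist of exons upstream of the zinc finger exons of MECOM-206, and the last exon of ESR1-206 lies inside SYNE1 (green, other strand, drawn only in part).

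The transcripts from the distal start varied less between samples than the others. Distal-start transcripts had 73.8, 44 and 60.5 counts in the knockdown and 66.6, 49.6 and 79.8 in the controls. The means were 35.5 ± 6.45 CPM and 39.1 ± 7.28 CPM (SD, n = 3 each), a log2 difference of -0.14 (standard error 0.209, exact permutation p = 0.6). The groups overlapped and the samples lay close together. The other 16 transcripts had 58.9, 76.6 and 69.4 counts in the knockdown and 216, 58.6 and 132 in the controls. Their means were 42.6 ± 13.3 CPM and 79.8 ± 42.5 CPM (SD, n = 3 each), a log2 difference of -0.79 (standard error 0.560, exact permutation p = 0.3). NT 1 and NT 3 stood above the other 4 samples and NT 2 lay among the knockdown samples. MECOM-206, a full-length transcript from the proximal side, had 15.8, 44.7 and 33.6 counts in the knockdown and 115, 36.6 and 88.5 in the controls, with the same 2 controls on top.

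The share of counts on the 12 housekeeping genes had the same order of samples as the CPM of these other-start transcripts (27.4, 51.8 and 48.7 after knockdown and 123, 38.4 and 77.9 in the controls). It made up 0.0654%, 0.162% and 0.156% of counts after knockdown and 0.291%, 0.118% and 0.232% in the controls, with NT 1 highest, NT 3 next and KD 1 lowest on both measures. All 12 housekeeping genes had a lower mean in the knockdown, with a median log2 fold change of -0.79, and 0 of them passed edgeR's exact test (3, ACTB, FTH1 and PKM, at an unadjusted p below 0.05). With the housekeeping share as a covariate, an alternative added once the data had been seen, the log2 fold change of MECOM was -0.09 in edgeR's quasi-likelihood test. What the shared order came from was not tested.

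**Figure D3:**
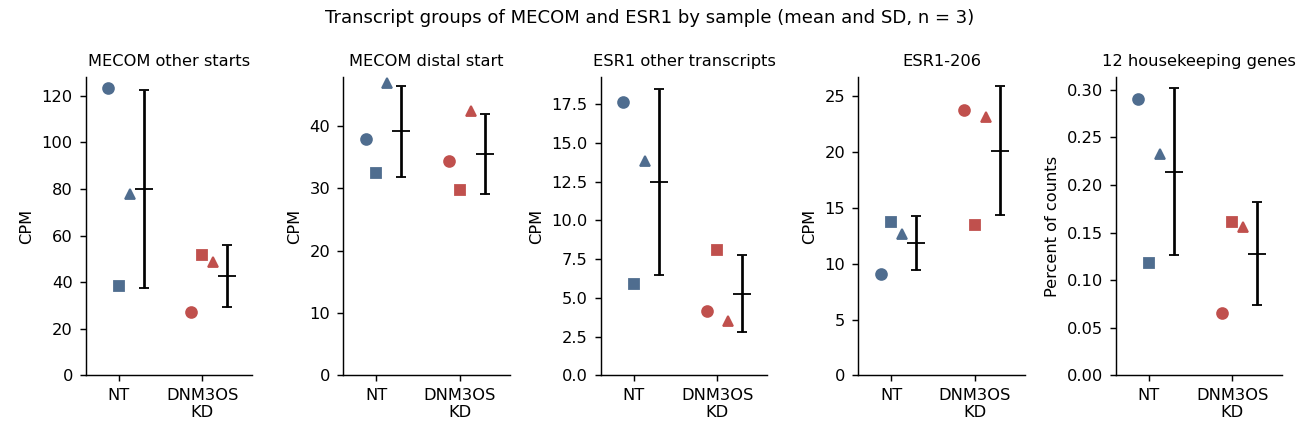
Transcript groups of MECOM and ESR1 in CPM and the share of counts on 12 housekeeping genes in percent, each by sample (circle, square and triangle for replicates 1, 2 and 3) with the mean and SD (n = 3, bars). NT 1 and NT 3 are the highest samples for the other-start transcripts of MECOM, for the ESR1 transcripts other than ESR1-206 and for the housekeeping share, and not for ESR1-206.

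ESR1 (ENSG00000091831, chr6:151656691-152129619, plus strand) encodes estrogen receptor alpha, a nuclear receptor that acts as a ligand-bound transcription factor. It had 60, 32 and 38 counts in the knockdown and 47, 30 and 45 in the controls, with 27.9, 21.6 and 26.7 CPM against 26.8, 19.6 and 26.5 CPM. The 2 groups covered almost the same range. The log2 fold change of 0.07 had a standard error of 0.176 (adjusted p = 1 in edgeR's exact test, exact permutation p = 0.6). With length-scaled TPM counts it was -0.50 (adjusted p = 1, edgeR's exact test), so that the direction depended on the kind of count.

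This sum held transcripts whose group means lay in opposite directions. ESR1-206 held 64.5% of the ESR1 counts and 40.8% of the TPM of the gene, and the canonical ESR1-201 held 55.3 counts over 6 samples. ESR1-206 had 51, 20 and 33 counts in the knockdown and 16, 21 and 21.5 in the controls, or 20.1 ± 5.74 CPM against 11.8 ± 2.42 CPM (SD, n = 3 each). The log2 difference was 0.70 (standard error 0.301, exact permutation p = 0.2), and KD 2 lay within the range of the controls. The other 12 ESR1 transcripts had 9, 12 and 5 counts in the knockdown and 31, 9 and 23.5 in the controls, or 5.27 ± 2.48 CPM against 12.5 ± 6.0 CPM. Here the log2 difference was -1.05 (standard error 0.534, exact permutation p = 0.2), and NT 2 lay within the range of the knockdown. Both p-values were above the smallest that the test can give, and the split was made after the values had been seen.

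ESR1-206 differs from the canonical form in its first exon, which has 165 bases against 683, and in its end. Its last exon, chr6:152125266-152129619, takes 4354 of its 5436 bases and lies inside SYNE1, the nesprin gene on the minus strand (chr6:152121687-152637801), without touching an annotated SYNE1 exon. The canonical ESR1-201 ends at 152103274, before SYNE1. SYNE1 itself had 184, 107 and 111 counts in the knockdown and 118, 152 and 120 in the controls. Where along ESR1-206 its reads lay cannot be read from these values, and a part of SYNE1 RNA in its counts was not tested.

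FOLR1 (ENSG00000110195, chr11:72189558-72196323, plus strand), the folate receptor of the cell surface, had 5, 0 and 0 counts in the knockdown and 1, 1 and 1 in the controls. The single value above 1 was KD 1. MSLN (ENSG00000102854, chr16:760734-768865, plus strand), the glycoprotein mesothelin, had 0, 0 and 0.984 counts in the knockdown and 0, 0 and 1 in the controls. MUC16 (ENSG00000181143, chr19:8848844-9010390, minus strand), the large membrane mucin whose shed part is the main serum marker of ovarian cancer, had 0, 0 and 2 counts against 2, 1 and 2. For none of these 3 genes did the counts separate the groups, and the depth does not allow a difference to be seen. Without the filter on low counts, the adjusted p of edgeR's exact test was 1 for each of them and for WT1.

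MUC1 (ENSG00000185499, chr1:155185824-155192916, minus strand), an epithelial membrane mucin, had 0 counts on each of its 26 quantified transcripts in all 6 samples. WFDC2 (ENSG00000101443, chr20:45469753-45481532, plus strand), a secreted protein with WAP domains, had 0 counts on each of its 7. All annotated transcripts of these 2 genes were quantified, so the zeros are not gaps in the transcript set. A count of 0 allows a level of up to 3 counts, which is 1.61 to 1.97 CPM depending on the sample, before library sizes were scaled. This limit covers counting error only, and does not cover signal that was assigned to another strand.

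**Figure D4:**
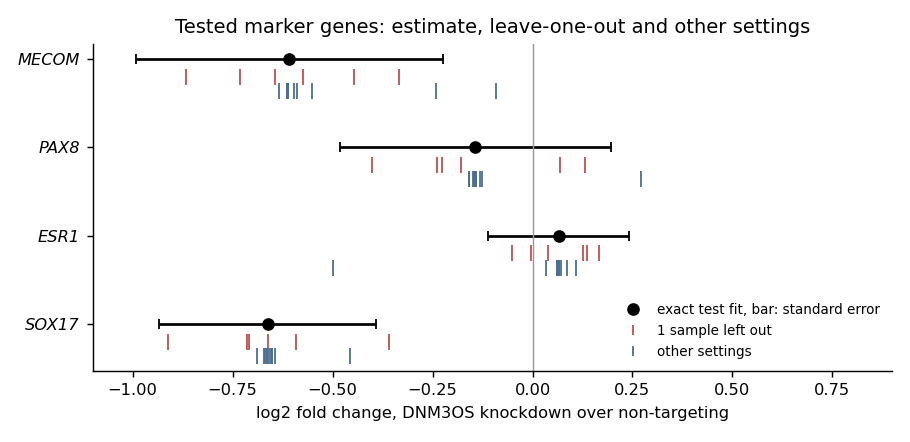
Log2 fold change of knockdown over non-targeting for the 4 tested markers, with the estimate of edgeR's exact test (black, bar for 1 standard error), the values with 1 sample left out (red) and those under the other settings (blue). SOX17 and MECOM stay below 0 in every setting drawn, while PAX8 and ESR1 fall on both sides of 0.

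Genes related to the markers were also not called in either direction. Of 97 genes in 7 lists, 96 were quantified (all but FOXL2) and 48 were tested, of which 24 were lower in the knockdown. Their median log2 fold change was -0.00113, and 0 of 48 were called by edgeR's exact test, while 3 (CA12, SPP1 and WFDC1) had an unadjusted p below 0.05. edgeR's quasi-likelihood test and DESeq2 called 0 genes in either direction. Groups without overlap were seen for CA12, which was lower, and WFDC1, which was higher. CA12, a carbonic anhydrase induced by estrogen, had 19.8, 21.8 and 16.9 counts against 55.4, 24.5 and 29.9, a log2 fold change of -0.88 (standard error 0.332). WFDC1, a secreted relative of WFDC2, had 186, 90.7 and 79.1 counts against 86.5, 72.1 and 79.3 (0.52, standard error 0.192). The lack of overlap refers to CPM, and for WFDC1 the counts before scaling did overlap.

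Among the lineage factors, 8 of 18 quantified Müllerian and gonadal transcription factors were tested and 3 of them were lower, and the highest were LHX1 (91.9 TPM), HOXA10 (50.5 TPM) and HOXA9 (34.9 TPM). PAX2, the paralogue of PAX8 in the Müllerian duct, had 0 counts in all samples. Of the 10 relatives of MECOM (PRDM genes and the corepressors CTBP1 and CTBP2), 6 were tested and 4 were lower, with 144 TPM for CTBP2 and 128 TPM for CTBP1. Of 15 estrogen receptor targets, 7 were tested and 3 were lower. The classic targets TFF1 and TFF3 had 0 counts in all samples, as did CXCL12, while CCND1 had 92.0 TPM, PDZK1 39.7 TPM and GREB1 19.8 TPM. CCND1 shares 497 exon bases with LTO1 on the other strand, which held 526 to 1017 counts against 61 to 151 for CCND1.

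Among the surface and secreted proteins, 11 of 22 ovarian tumor antigens were tested and 6 were lower, and the highest were LYPD1 (153 TPM), CD24 (148 TPM) and BCAM (41.3 TPM). LYPD1 shares 1180 exon bases with GPR39 on the other strand, which held 32 to 87 counts against 254 to 338 for LYPD1. The kallikreins KLK5, KLK6 and KLK8 had 0 counts in all samples. None of the 8 transmembrane mucins passed the filter, and only MUC17 (13.6 TPM, 2 to 10 counts) and MUC12 (5.45 TPM, 1 to 7 counts) had a mean of at least 5 TPM. Of the 9 relatives of MSLN and WFDC2, 4 were tested and 2 were lower, with 20.4 TPM for WFDC1, 12.3 TPM for WFDC3 and 8.05 TPM for STRC. In folate uptake and use, 12 of 14 genes were tested and 6 were lower. SLC19A1, the reduced folate carrier, had 2127 TPM, SLC46A1, the proton-coupled carrier, 91.8 TPM and TYMS, thymidylate synthase, 84.3 TPM. All 3 share exon bases with a gene on the other strand. SLC46A1 shares 4421 bases with SARM1, which held 1034 to 1383 counts against 108 to 176 for SLC46A1. TYMS shares 967 bases with ENOSF1, which held 375 to 599 counts against 92.7 to 141 for TYMS. SLC19A1 shares 1563 bases with COL18A1, which held only 41.6 to 98.5 counts against 2478 to 3679 for SLC19A1.

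Markers of other cell types were also present. In 5 lists of 36 such genes, 16 had a mean of at least 5 TPM, against 4 of 10 ovarian markers, 5 had 0 counts in all samples, and the median was 0.975 TPM, against 0.888 TPM. Of the 15 tested, 0 were called by edgeR's exact test, 1 (UPK1B) had an unadjusted p below 0.05, and 5 were lower in the knockdown. The immune list had 4 of 8 genes tested, and its summed level was 131 to 147 TPM in the knockdown and 122 to 138 TPM in the controls. Its leading gene, PTPRC, which encodes the leukocyte antigen CD45, had 80.5 TPM and 90.5 to 148 counts, more than PAX8, while CD14 and ITGAM had 0 counts in all samples. The fibroblast list (5 of 9 tested) had, in the same order of groups, 93.7 to 120 TPM and 79.2 to 112 TPM, led by DCN at 38.0 TPM. The granulosa and theca list (2 of 7 tested) had 33.8 to 42.9 TPM and 26.6 to 38.8 TPM, led by INHA at 16.1 TPM. The mesothelial list (3 of 7 tested) had 39.0 to 74.2 TPM and 37.9 to 46.5 TPM, led by UPK3B at 18.4 TPM, with CALB2 and DES at 0 counts. On the CPM scale its member UPK1B did not overlap between the groups and was higher in the knockdown (log2 fold change 0.91 with a standard error of 0.309, adjusted p = 1 in edgeR's exact test). The endothelial list (1 of 5 tested) had 7.53 to 16.7 TPM and 7.75 to 13.5 TPM, led by PECAM1 at 9.95 TPM, with TEK at 0 counts. The levels of the ovarian markers, from 0 to 104 TPM, and of the markers of other lineages, from 0 to 80.5 TPM, overlapped widely. Set against the label of an ovarian cancer line, PAX8, SOX17, MECOM and ESR1 had counts in every sample, while WT1, MUC16, MUC1, MSLN, WFDC2 and FOLR1 were at or near 0. The origin of the signal on genes of other lineages was not tested.

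**Figure D5:**
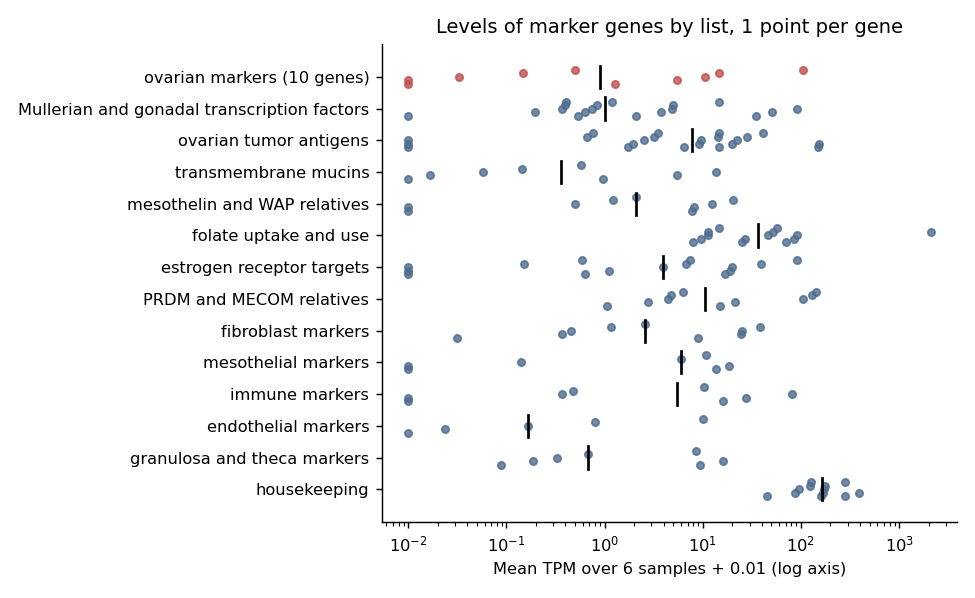
Mean TPM over 6 samples plus 0.01 (log axis), with 1 point per gene and a vertical bar at the median of each list. The ovarian markers (red, median 0.888 TPM) reach from 0 to 104 TPM and the lists of other cell types from 0 to 80.5 TPM, while the folate list (median 36.7 TPM, up to 2127 TPM) and the 12 housekeeping genes (median 163 TPM) lie higher.

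As a check of the line, ERBB2 had 316 TPM and did not pass edgeR's exact test (log2 fold change of -0.64, adjusted p = 1). ERBB2 was highest in NT 1 and NT 3, with 872 and 604 counts, against 365 in NT 2 and 311, 398 and 409 in the knockdown samples.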

How the data were processed

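RNA-seq libraries of 6 SKOV3 samples (3 DNM3OS KD, 3 NT) had been made from ribosome-depleted total RNA with a stranded kit. The authors quantified 173259 Ensembl transcripts of GRCh38 with kallisto 0.43.0 (version per the labels). Each deposited row holds a transcript's estimated count, without normalization, and its TPM. The strand setting is not given in the sources used here.

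By identifier, 155518 transcripts were matched to GENCODE release 44, and the other 17741 were left out. Estimated counts and TPM were summed per gene, and counts were rounded for the tests. Genes passing filterByExpr (minimum count 10) were normalized by TMM and tested on the whole table with edgeR 4.0.16 (exact test, R 4.3.3) and Benjamini-Hochberg adjustment. Calls needed at least 2-fold and an adjusted p below 0.05. CPM used TMM-scaled library sizes. Standard errors came from log2 CPM with a prior count of 2, and transcript groups were compared on log2(CPM + 1). Exact permutation tests were two-sided.

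On simulated counts, 194 of 200 genes changed by 2 on the log2 scale were recovered, with 0 in the wrong direction and 17 other calls among 11314 genes. The changed genes were drawn only from those above a floor of mean counts. The recovery therefore does not apply to genes with few counts, such as SOX17, or to smaller changes. The chi-square per degree of freedom between any pair of samples was at least 2.165. It was computed on estimated counts and without a repeated library to compare with. Whether replicates were repeats of a library can therefore not be settled by it. Alternatives were the quasi-likelihood test with and without a replicate block, DESeq2 1.42.0, RLE, other filters, length-scaled TPM counts, other gene or transcript sets and leaving out each sample. Named were all 10 markers, of each related list the genes past the threshold and the up to 3 with the highest mean TPM, and opposite-strand partners. The genes with the largest share of counts and the highest mean TPM were also named. Genes without overlap between groups, genes of a list at 0 counts and MECOM and ESR1 transcripts were chosen after their values were seen. Values of a few other genes of the lists are not reported here. The members and lists were chosen with earlier results of these data known.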

Additional observations from a re-analysis of the deposited data

How the results depend on the processing

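No marker was called under any setting run. The number of genes called lower, 1 in the comparison as reported, was 0 with edgeR's quasi-likelihood test, DESeq2, only transcripts without exon bases shared with the other strand, or the housekeeping share as a covariate, which was added once the data had been seen, 2 without a filter or with a filter of 1 CPM in 3 samples, and 4 with length-scaled TPM counts or with transcripts outside the annotation kept. The number called higher, 0 as reported, was 2 with length-scaled TPM counts and 1 with transcripts outside the annotation kept. Leaving out 1 sample at a time gave 0 to 3 genes lower and 0 to 1 higher. The cause was not tested.

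The log2 fold change of PAX8 was 0.2704 with the housekeeping covariate and ranged from -0.4006 to 0.1308 when 1 sample was left out, and that of ESR1 was -0.4999 with length-scaled TPM counts and ranged from -0.05192 to 0.1665. MECOM (-0.8668 to -0.3326) and SOX17 (-0.9122 to -0.3576) kept their direction in all these. With length-scaled TPM counts MECOM was -0.2418, and SOX17 with the housekeeping covariate was -0.4571. PAX8 was not tested when only transcripts without shared bases were kept. The level of PAX8 without the gene of highest TPM was 18.1 TPM and that of MECOM 127 TPM.

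Replicate numbers did not pair the samples: deviations of same-numbered samples correlated at -0.3959, -0.3365 and 0.2326. With the replicate block in edgeR's quasi-likelihood test, 0 genes were called lower and 0 markers were called, with log2 fold changes of -0.5517 for MECOM, -0.1589 for PAX8, 0.06736 for ESR1 and -0.6716 for SOX17. The depth limits the other 6 markers, which had 5 counts or fewer per sample.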
